A study of Rattus norvegicus with 6 samples.

Results

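Mef2a, Mef2b, Mef2c and Mef2d, the 4 genes of the myocyte enhancer factor 2 (MEF2) family, were followed across maps of trimethylated lysine 27 of histone H3 (H3K27me3) in primary heart muscle cells of newborn Sprague Dawley rats. They were chosen by gene symbol in the deposited lists of genes with a peak, and each had 1 entry, so they are 4 of the 22427 genes listed in at least 1 library. Cells were cultured with serum and kept for 24 h with 5 mM α-ketoglutarate (α-KG) or, as control, with phosphate-buffered saline. Each treatment had 2 H3K27me3 libraries, here control 1, control 2, α-KG 1 and α-KG 2, and the 2 input samples were not analysed here. Each library lists a gene or leaves it out. No peak height, position or read depth comes with it, so an unlisted gene may lack the mark or may lie below detection. Chromatin was taken in bulk, and a mark in few cells cannot be told apart from a weak mark in many. The labels do not say that the replicates were separate cultures.

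MEF2 proteins are transcription factors of muscle, nerve and immune cells. They bind A/T-rich DNA as dimers through a MADS-box, a DNA-binding fold they share with serum response factor (Srf). Class IIa histone deacetylases hold them inactive, and calcium-dependent kinases, calcineurin and MAP kinases release or activate them. In the heart, Mef2c acts early in the formation of the heart tube and Mef2a and Mef2d act in cardiac muscle later, while Mef2b is best known from B cells. H3K27me3 is placed by Polycomb repressive complex 2, often at CpG-rich promoters, and is removed by demethylases that use α-KG as a cosubstrate.

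The promoter windows of the members are shown because CpG content differed between them, a feature that the lists do not use. RefSeq windows on build GRCr8, running from 250 bases before the annotated start of a gene to 50 after it, matched Mef2a, Mef2b and Mef2d by symbol (3 of 4 members), and Mef2c had no match. The lists were made on another build, rn6, and say nothing of where in a gene a peak lies. Capitals mark CpG dinucleotides.
Mef2a (chr1:130392113-130392412, minus strand): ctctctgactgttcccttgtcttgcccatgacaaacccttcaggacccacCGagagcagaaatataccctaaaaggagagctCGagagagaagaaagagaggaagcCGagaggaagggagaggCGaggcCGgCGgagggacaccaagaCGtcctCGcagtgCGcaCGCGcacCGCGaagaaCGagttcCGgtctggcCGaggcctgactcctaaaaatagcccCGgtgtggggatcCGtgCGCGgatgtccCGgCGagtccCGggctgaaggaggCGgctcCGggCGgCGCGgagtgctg
Mef2b (chr16:19302861-19303160, minus strand): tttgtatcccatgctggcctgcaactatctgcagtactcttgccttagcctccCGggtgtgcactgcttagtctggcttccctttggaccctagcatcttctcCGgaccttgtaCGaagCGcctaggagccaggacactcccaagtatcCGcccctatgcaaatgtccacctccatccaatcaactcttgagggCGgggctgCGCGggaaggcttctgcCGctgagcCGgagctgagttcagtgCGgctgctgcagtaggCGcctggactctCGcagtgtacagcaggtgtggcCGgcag
Mef2d (chr2:175904082-175904381, plus strand): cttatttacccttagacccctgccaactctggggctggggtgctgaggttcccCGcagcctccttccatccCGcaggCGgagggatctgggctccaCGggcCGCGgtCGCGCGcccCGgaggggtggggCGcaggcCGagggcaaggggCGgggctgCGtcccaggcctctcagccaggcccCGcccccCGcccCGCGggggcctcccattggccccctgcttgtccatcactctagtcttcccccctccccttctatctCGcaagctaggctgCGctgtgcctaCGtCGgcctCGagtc
The Mef2a window held 28 CpGs, the Mef2d window 23 and the Mef2b window 14.

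Mef2c was the member whose listing divided by treatment. Mef2c (ENSRNOG00000033134) was not listed in control 1 or control 2 and was listed in α-KG 1 and α-KG 2, so the groups did not overlap. Among all genes listed in any library, 729 of 22427 (3.25%) had this gain pattern, and 516 (2.30%) had the reverse, loss pattern. Of the 2745 genes that neither control listed, 26.6% were in both α-KG libraries, 16.6% in α-KG 1 alone and 56.9% in α-KG 2 alone. Mef2c was chosen with its pattern known, so these shares are a description and no test was made. With 2 libraries against 2, the smallest two-sided p that an exact permutation test can give is 0.333.

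Mef2a and Mef2d, the forms that act in cardiac muscle after the early heart is made, were listed in each of the 4 libraries (ENSRNOG00000047756 and ENSRNOG00000031778). The same held for 14077 of all genes (62.8%), so the listing of this pair was the common state. Mef2b (ENSRNOG00000020400) was listed in control 2, α-KG 1 and α-KG 2 and not in control 1, a pattern of 1101 genes (4.91%). The groups overlapped for Mef2b, since control 2 stood with the α-KG libraries. Of the 2893 genes listed in exactly 3 libraries, 38.1% were missing from control 1, which had the shortest list.

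Counted by library, control 1 listed 2 of the 4 members, control 2 listed 3, and α-KG 1 and α-KG 2 each listed 4. The shares of all genes in the same libraries were 76.9%, 82.2%, 80.8% and 85.5%. Control 1 was therefore lowest both for the members and for all genes. For all genes α-KG 2 was highest, while for the members it was level with α-KG 1. Control 2 listed 18442 genes, without Mef2c, and α-KG 1 listed 18120, with Mef2c. Whether list length had a part in the listing of Mef2b or Mef2c was not tested.

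Srf, the MADS-box factor outside the MEF2 family, was listed in all 4 libraries. By the protein domains in the deposited lists, 5 genes carried a MADS-box, namely Srf and the 4 members, of which 3 were in all 4 libraries. The members differ in a further domain: Mef2a, Mef2c and Mef2d carry the annotation of a C-terminal region named for the Holliday junction regulator family and Mef2b does not. Genes with that annotation did not share 1 listing, since Mef2a and Mef2d were in all 4 libraries and Mef2c in 2. The centromere protein gene Hjurp, which has the same annotation, was in control 2 and α-KG 2. In other families of DNA-binding factors, 10 of 14 genes with a GATA-type zinc finger, 14 of 16 T-box genes, 92 of 110 basic helix-loop-helix genes and 196 of 225 homeobox genes were in all 4 libraries (71.4%, 87.5%, 83.6% and 87.1%, against 62.8% of all genes). The gain pattern of Mef2c occurred there in 1 GATA-type gene (Zglp1), 0 T-box genes, 0 basic helix-loop-helix genes and 2 homeobox genes (Crx and Zfhx2), against 3.25% of all genes. The loss pattern occurred in 1 T-box gene (Tbx22) and in 0 genes of the other families, against 2.30% of all genes. Zglp1, Crx, Zfhx2 and Tbx22 were named after their values were seen. These families are set side by side as counts, and the difference from MEF2 was not tested.

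Genes beside Mef2c did not share its pattern, which 3.25% of all genes had. Neighbouring genes can share a peak, so the 3 nearest named genes on each side that RefSeq classes as protein-coding were taken from the gene order of assembly GRCr8. Around Mef2c, the centrin gene Cetn3 (2 entries), the RNA polymerase III subunit gene Polr3g, the membrane protein gene Tmem161b and the cyclin gene Ccnh were in all 4 libraries. Mblac2 was in α-KG 2 alone, and Mir9-2hg, which RefSeq classes as protein-coding although its symbol is that of a microRNA host gene, had no entry. Of the 6 entries around Mef2c, 5 were in all 4 libraries and 0 had the gain pattern. Among all genes these shares were 62.8% and 3.25%, so listed neighbours were the common state. Whether Mef2c shared a peak with any of these genes was not tested, since the lists give no peak positions.

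Most neighbours of Mef2a were in all 4 libraries, the state of 62.8% of all genes. Cers3, a ceramide synthase gene, the protease gene Adamts17, Lysmd4, Lrrc28 and the intermediate filament gene Synm were in all 4 libraries, and Ttc23 was in control 1 alone. Around Mef2d the listing was mixed. The ammonium transporter gene Rhbg and Naxe, entered under an older symbol, were in all 4 libraries, whereas Ttc24 was in both controls and neither α-KG library. Iqgap3 was in α-KG 2 alone, the chaperonin subunit gene Cct3 in α-KG 1 alone, and Tsacc had no entry. Around Mef2b, the mitochondrial carrier gene Slc25a42 was in all 4 libraries. Tmem161a was in all but α-KG 1, Armc6 in control 1 and α-KG 2, and Nr2c2ap in control 2 and α-KG 2. Borcs8 and Rfxank, next to Mef2b on the other side, had no entry. Of the 24 neighbours of the family, 20 had an entry, with 21 entries in all. Among these, 13 were in all 4 libraries, 0 had the gain pattern and 1 (Ttc24) the loss pattern, against 62.8%, 3.25% and 2.30% of all genes.

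**Figure D1:**
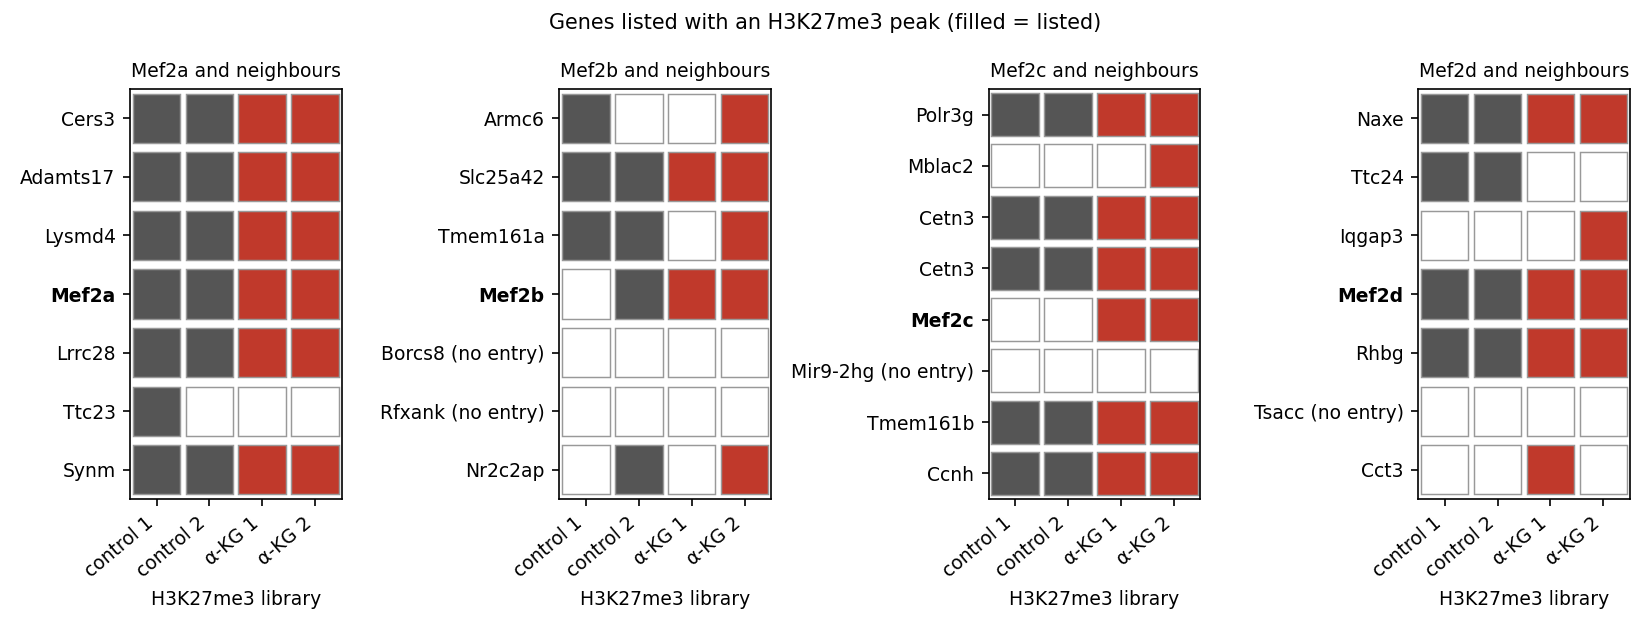
Listing of each MEF2 gene (bold) and its 3 nearest named neighbours on each side in the order of assembly GRCr8 (rows), in the 4 H3K27me3 libraries (columns). A filled tile is a listed gene, grey for control and red for α-KG, and distances are not to scale. Mef2c is filled in the α-KG columns alone, with Cetn3, filled in all 4 columns, next to it on one side and Mir9-2hg, which has no entry, on the other.

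Of the repressors of MEF2, 6 of 8 entries (75.0%) were in all 4 libraries, against 62.8% of all genes. Among them were the class IIa deacetylase genes Hdac4, Hdac7 and Hdac9, Hdac3, which works with them, and the corepressor gene Nrip1. The exceptions were Hdac5, in α-KG 2 alone, and Cabin1, an inhibitor of calcineurin and of MEF2, which was missing from control 1 alone. Coactivators were in all 4 libraries for 7 of 11 entries (63.6%), near the 62.8% of all genes, with Crebbp, Carm1, Myocd and Maml1 as examples. The acetyltransferase gene Ep300 was in α-KG 1 alone and the steroid receptor coactivator gene Ncoa2 in α-KG 2 alone. Kat2b, entered under an older symbol, was missing from control 2. Ppargc1a, which drives mitochondrial genes together with MEF2, was missing from control 1.

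Of the enzymes that signal to MEF2, 15 of 19 entries (78.9%) were in all 4 libraries, against 62.8% of all genes. These included Map2k5, which acts upstream of the MAP kinase ERK5, the p38 kinase genes Mapk14 and Mapk11, and Map2k6, which activates p38. The cardiac calmodulin kinase gene Camk2d and the calcineurin genes Ppp3ca, Ppp3cb and Ppp3r1 were also in all 4. Camk1 was missing from control 1 and Camk2a from α-KG 2, while Map2k3 and the calcineurin subunit gene Ppp3r2 were in α-KG 2 alone. Mapk7, which encodes ERK5, and Prkd3 had no entry.

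Partner factors, which bind DNA beside or together with MEF2, had 18 of 19 entries (94.7%) in all 4 libraries. The share was 62.8% for all genes and 71.4% to 87.5% for the GATA-type, T-box, homeobox and basic helix-loop-helix families. The partner factors in all 4 libraries included Gata4 and Nkx2-5 of cardiac muscle and Myod1 and Myog of skeletal muscle. Hand2, needed for the right ventricle, was the exception and was missing from control 1, and Myf6 had no entry. Genes held to be MEF2 targets in muscle or nerve cells were in all 4 libraries for 14 of 20 entries (70.0%), against 62.8% of all genes, among them Myl2, Myom1, Actc1 and Des of the contractile apparatus. The immediate early genes Nr4a1, Jun and Egr1 were listed in all 4 as well. The atrial natriuretic peptide gene Nppa was in control 2 alone, and the creatine kinase gene Ckm and the kinase gene Srpk3 in α-KG 2 alone. Smyd1, a muscle methyltransferase gene, was in control 2 and α-KG 1. Hrc, of the sarcoplasmic reticulum, and the glucose transporter gene Slc2a4 were missing from α-KG 1. The myosin genes Myh6 and Myl3 and the Z-disc genes Csrp3 and Tcap had no entry.

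No gene of these lists shared the pattern of Mef2c. Over the 77 entries of the 5 lists, 60 (77.9%) were in all 4 libraries, against 62.8% of all genes. The median was 4 libraries per entry, the same as over all genes. None of the 77 had the gain pattern and none the loss pattern, where 3.25% and 2.30% of all genes had them, shares at which few would occur in a list of this size. Cabin1, Ppargc1a, Camk1 and Hand2 had exactly the pattern of Mef2b, missing from control 1, which makes 4 of 77 beside 4.91% of all genes. Likeness here means the same state in each of the 4 libraries. Entries in α-KG 2 alone numbered 6 of 77 (Hdac5, Ncoa2, Map2k3, Ppp3r2, Ckm and Srpk3), beside 6.96% of all genes. Control 1 listed 64 of the 77 entries, control 2 listed 69, α-KG 1 listed 68 and α-KG 2 listed 73, the same order of libraries as for all genes.

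**Figure D2:**
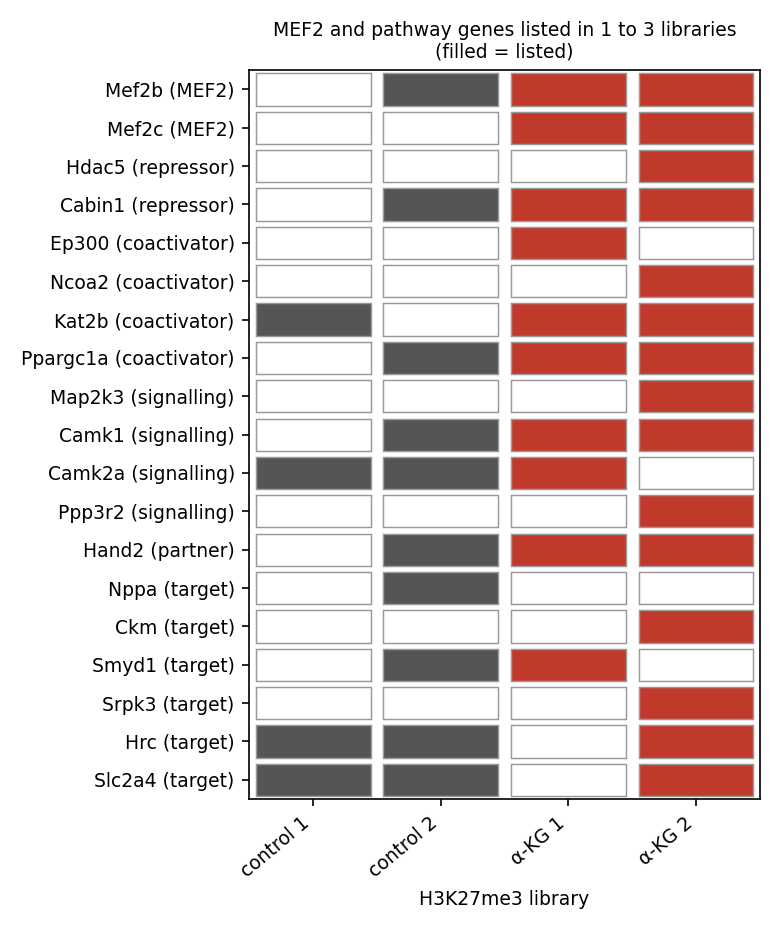
Listing of the MEF2 and pathway genes that were in 1 to 3 of the 4 H3K27me3 libraries (columns), with the group of each gene in brackets. A filled tile is a listed gene, grey for control and red for α-KG. Mef2c is the row filled in both α-KG columns and in no control column, and 6 pathway genes are filled in the α-KG 2 column alone.

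The CpG ratio of a promoter window is its count of CpG dinucleotides divided by the count that its C and G bases would give at random. It was 0.95 for Mef2a, above 89.3% of the 21851 windows of protein-coding genes. Mef2d had 0.61, above 56.5% of them, and Mef2b 0.53, above 50.3%. GC content was 63.0% for Mef2a, 71.3% for Mef2d and 59.7% for Mef2b. Across windows, the median ratio was 0.70 for genes in all 4 libraries, 0.52 for 3 libraries, 0.52 for 2 and 0.61 for 1. It was 0.28 where a gene had no entry. Mef2a lay above the median of windows in its listing class, Mef2d below it, and Mef2b 0.007 above it. Windows of genes with the gain pattern of Mef2c had a median of 0.61 (480 windows) and those with the loss pattern 0.28 (293 windows). These medians count windows, so a gene with several annotated starts enters more than once. Windows and genes are not replicates, and windows without an entry include genes that could not be matched by name.

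**Figure D3:**
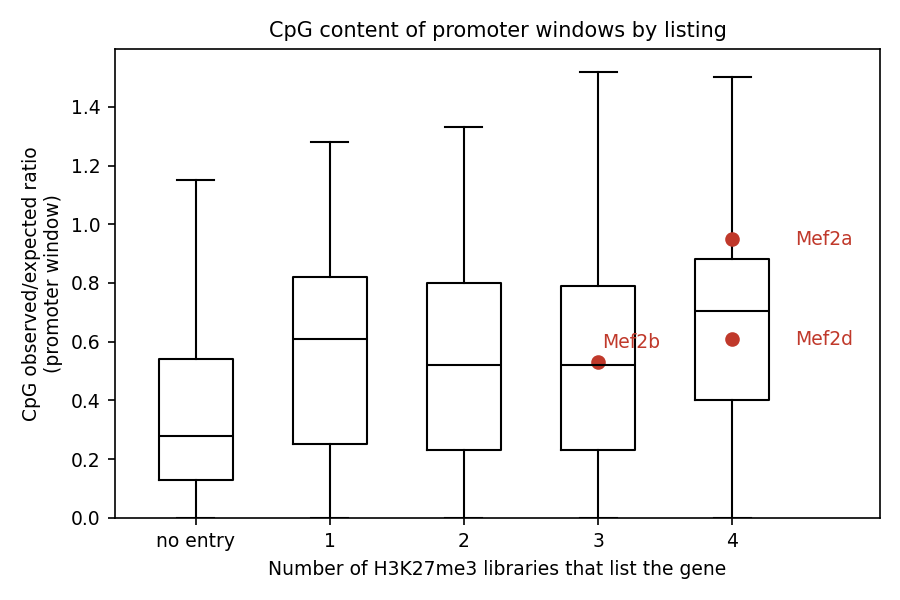
CpG observed/expected ratio of promoter windows (vertical axis, no unit) by the number of H3K27me3 libraries that list the gene (horizontal axis). Boxes span the quartiles with the median as a line, whiskers reach the last value within 1.5 box lengths, values beyond are not drawn, and red points are Mef2a, Mef2b and Mef2d. The box for 4 libraries has the highest median (0.70), and Mef2a (0.95) lies above that box.

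One member carried a MEF2 binding sequence in its own window. The 10-base MEF2 consensus was searched on both strands, and 2.88% of protein-coding windows (630 of 21851) held a match. Mef2a held 1, and its letters, CTAAAAATAG, occurred in 15 windows in all. The windows of Mef2b and Mef2d held no such letters. Of the 84 pathway genes, 67 had a window, and 1 window was searched for each. The 2.88% counts every window of a gene with several starts, so the 2 shares are not strictly alike. Among the pathway genes, 6 of 67 windows (8.96%) held a match: Hdac5, the partner factor genes Myf6 and Thra, and the target genes Xirp2, Srpk3 and Smpx, which encode proteins of striated muscle. The sites of Mef2a, of the targets and of Hdac5 are shown with up to 10 bases on each side and the match in capitals, read from the same RefSeq windows on GRCr8.
Mef2a (chr1:130392183-130392212, minus strand): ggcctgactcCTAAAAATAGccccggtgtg
Xirp2 (chr3:72534102-72534131, plus strand): agctcagctcCTAAAAATAGatgctaggtt
Smpx (chrX:41107219-41107248, minus strand): gtatcaaactCTATATTTAGgaagaacaac
Srpk3 (chrX:156661879-156661908, plus strand): agctgggaggCTATTTATAAaggcgggtga
Hdac5 (chr10:87688087-87688116, minus strand): gggtctgagcCTATTTTTAGctcggggtcg
The Mef2a match begins 40 bases before the annotated start, that of Xirp2 74, Smpx 101, Srpk3 81 and Hdac5 52. Mef2a, Xirp2 and Smpx were listed in all 4 libraries, and Srpk3 and Hdac5 in α-KG 2 alone. A match of letters does not show that MEF2 binds there.

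Markers fixed for the labelled cells and for other cell types were listed in a mixed way. Of 6 cardiomyocyte markers, 4 had an entry: Tnnt2 and Actn2 were in all 4 libraries, Ryr2 in both controls alone and Tnni3 in α-KG 1 alone, and Myh6 and Ttn had none. Of 20 markers of fibroblasts, endothelium, smooth muscle and immune cells, 15 had an entry and 10 were in all 4 libraries. By library 12, 15, 13 and 13 of the 15 were listed. Peak lists do not tell which cells a peak came from, so they cannot check the label of the cells.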

How the data were processed

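The authors deposited, for each H3K27me3 library, a list of genes with a peak: Ensembl gene ID, symbol and protein domains, with no header, count or score. Per the submitters' processing notes, the tools were CASAVA, BWA and MACS2 and the build rn6, with no versions or roles. For peak thresholds, use of input and assignment of peaks to genes, the answer is not given in the sources used here. A rule that assigns peaks over whole genes would list long genes more readily.

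Lists were read with Python 3.11.15 and plotted with matplotlib 3.10.9. Groups came from the labels. Gain means that both α-KG libraries but no control listed a gene, and loss the reverse. Entries, one per Ensembl ID, were counted. Pathway genes were matched by symbol, or by an older symbol that no other RefSeq gene uses, and 77 of 84 had an entry. The members and lists were chosen with earlier results of these data known. The naming rule took all members and neighbours, every pathway gene not in all 4 libraries, and up to 4 per list of those in all 4, with further examples in the text chosen by role. One gene that is counted is not reported here by name. No test was run, since the members, taken by symbol, were proposed with their listing known. The pattern calls were checked on made-up listings of known pattern, and the motif search on short made-up sequences. Alternatives were leaving out each library, counting symbols, and a shorter promoter window.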

Additional observations from a re-analysis of the deposited data

How the results depend on the processing

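Members with the gain pattern numbered 1 to 2 without 1 library, and 2 arose without control 2, when Mef2b joined Mef2c. Members with the loss pattern stayed at 0 and those in every library at 2 to 3. Over the 77 pathway entries, without 1 library the gain count went from 0 to between 1 and 6, the loss count from 0 to between 0 and 2, and the count in every library to between 61 and 64. Fewer libraries then had to share a pattern: the gain share of all genes was 5.03% to 10.4% and the loss share 4.12% to 6.23%. Counting symbols could move no count, since each member and each matched pathway gene had 1 entry. Among entries with a symbol the gain share was 3.33% and the loss share 2.10%. The CpG ratio before the start alone was 0.91 for Mef2a, 0.52 for Mef2b and 0.54 for Mef2d. No paired analysis was possible because no test was run and the labels do not say that libraries of the same number belong together. Read depth is unknown, so an unlisted gene cannot be told from one below detection.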
